A study of Homo sapiens with 20 samples.

Results

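The plasminogen activation system was followed through 7 of its genes, taken by name from the 23368 genes of a count table: PLAU and PLAT (activators), PLAUR (the receptor of the PLAU protein), SERPINE2 (an inhibitor), and ANXA2, S100A10 and PLGRKT (cell-surface plasminogen receptors). The rule names the genes and uses no measured value, although earlier results of these data were known when they were chosen. All 7 were found (PLGRKT under its older symbol C9orf46), and all 7 passed the filter on low counts in both lines. RNA-seq counts were made in 2 human carcinoma lines, Panc1 (from a ductal tumour of the pancreas) and A549 (from an adenocarcinoma of the lung). The 4 groups in either line were labelled as a control siRNA (siCont), TGFβ, an siRNA directed at KLF10 (siKLF10), and that siRNA combined with TGFβ. Treatment with TGFβ lasted 72 h at 5 ng/ml. The sample titles of the TGFβ groups name no siRNA, so whether those cells also received the control siRNA is not stated. Panc1 had 3 libraries in each group (lettered A, B and C) and A549 had 2 (A and B), which makes 20 libraries in 8 groups. Nothing in the labels says that libraries of a group came from separate cultures, and the p-values therefore rest on a spread that may be technical only. The labels list both lines as immortalized with SV40 large T antigen.

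Plasminogen is a circulating zymogen that is cut to plasmin, a broad protease that degrades fibrin and activates other matrix proteases. PLAU encodes urokinase (uPA), which cuts plasminogen at the surface of cells that carry its receptor uPAR, and PLAT encodes tissue plasminogen activator (tPA), best known for dissolving clots. Serpins such as SERPINE2 (protease nexin 1) trap the activators, and the complexes are taken up by receptors of the LDL receptor family. Receptors with a carboxy-terminal lysine hold plasminogen itself at the membrane: S100A10, which is carried by ANXA2, and PLGRKT. In carcinoma cells the system is known for its part in invasion, and TGFβ is a cytokine known to act on several of its genes. KLF10 is a zinc-finger transcription factor and an early TGFβ target.

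Some facts of the libraries bear on the members. KLF10 itself stood at 139.7, 136.7 and 130.5 CPM (counts normalised to library size with TMM factors over the 20 libraries, the scale of every level given here) in Panc1 siCont and at 82.9, 80.7 and 77.1 CPM in Panc1 siKLF10, a fall that was called (log2 fold change -0.76, adjusted p = 2.58e-09). In A549 it stood at 112.9 and 109.4 CPM in siCont and at 103.5 and 108.0 CPM in the libraries labelled siKLF10 (log2 fold change -0.05, adjusted p = 0.743), and it was lower only between the TGFβ groups (log2 fold change -0.29, adjusted p = 0.00776). The A549 groups are therefore called by their labels throughout. Panc1 siCont library A stood apart from the rest of its group in KRT5, a basal keratin. KRT5 was at 60.5 CPM there against 21.8 and 22.3 CPM in libraries B and C and 5.30 to 9.56 CPM in the other Panc1 groups. Of the other basal markers, KRT14 did not exceed 0.1602 CPM in Panc1 and TP63 ran from 0.603 to 5.36 CPM. Over all genes, library A of Panc1 siKLF10 with TGFβ stood apart. Its chi-square per degree of freedom against libraries B and C was 9.11 and 12.5, where B against C gave 2.06. In Panc1 siKLF10, A against B gave 10.5. In Panc1 siCont, A against C gave 9.42, B against C 5.71 and A against B 3.29, so library C lay farthest there. In A549 the pair with siKLF10 and TGFβ gave 11.4, where the other pairs gave 2.22 to 2.97. A single pair cannot tell which library stood apart. The measure was not scaled for depth, and library B of that pair was the deepest of the series. Library totals over genes ran from 11152625 to 15571367 counts in Panc1 and from 6846761 to 19070551 in A549, so that a floor of 3 counts lay between 0.164 and 0.432 CPM. Reads that the counting assigned to no gene feature were 33.6 to 37.0% in Panc1 and 57.6 to 60.2% in A549. The shares are of all reads counted in genes, in no feature or as ambiguous. Levels compared between the lines below rest on libraries that differ in this share. The markers fixed for lung (NKX2-1, surfactant genes, SCGB1A1, AGER) were at or near 0 in A549, with AGER at 0 in every library and NKX2-1 at 0.794 CPM at most. Of the pancreas markers, SOX9 (201.5 to 255.5 CPM) and KRT19 (36.25 to 236.3 CPM) were present in Panc1. PTF1A, CPA1 and PRSS1 were at 0 there, and PDX1 did not exceed 0.2604 CPM. SOX9 was also present in A549 (38.7 to 132.7 CPM), where KRT19 did not exceed 4.46 CPM. Of the 4 blood markers CD3E was at 0 in all libraries and PTPRC did not exceed 0.269 CPM, CD14 did not exceed 5.28 CPM, and CD68, which many cell types express, reached 38.0 to 282.5 CPM in Panc1 and 11.6 to 51.1 CPM in A549. Their sum moved with the groups. In Panc1 it was 264.4 to 284 CPM in siCont, 156.2 to 171.4 CPM with TGFβ, 72.9 to 97.0 CPM with siKLF10 and 38.4 to 54.6 CPM with both. In A549 it was 29.8 to 30.4, 49.9 to 52.6, 16.7 to 17.2 and 32.6 to 34.8 CPM in the same order. The fibroblast markers FAP, PDGFRA, PDGFRB, DCN, LUM and COL3A1 summed to 1.35 to 1.64 CPM in A549 siCont, against 9.78 to 11.9 CPM with TGFβ. In Panc1 their sums were 12.2 to 13.8 CPM in siCont, against 28.3 to 32.0 CPM with TGFβ. The 5 epithelial markers summed to 641.9 to 774.2 CPM in Panc1 siCont and 380.7 to 408.4 CPM with TGFβ, and to 6932 to 7101 and 5630 to 5673 CPM in A549. With siKLF10 the Panc1 epithelial sum was 698 to 750.9 CPM, within the siCont range. With both it was 669.9 to 781.6 CPM, so no fall of this sum with TGFβ was seen after siKLF10. Most of the Panc1 sum was KRT8 (246 to 564.7 CPM) and KRT18 (121.8 to 224.9 CPM). EPCAM, CDH1 and KRT7 did not exceed 12.18, 18.64 and 26.49 CPM in Panc1, so the sum does not show their changes. In A549 the epithelial sums with siKLF10 and with both were 7036 to 7703 and 4745 to 5201 CPM. The fibroblast sums with siKLF10 and with both were 14.6 to 15.1 and 34.0 to 38.6 CPM in Panc1. In A549 they were 2.38 to 3.605 and 15.2 to 15.5 CPM. Marker levels thus moved with some comparisons below but not all, and their part in them was not tested. In these bulk libraries a smaller share of cells that express a gene and less of its RNA per cell cannot be told apart.

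Promoter windows of SERPINE2, PLAU, PLAUR and ANXA2 are shown first, to set the regulatory sequence beside the levels. The first PLAU window, which held no match to any motif searched, and the windows of S100A10 and PLGRKT are not printed. Each is the 250 bases upstream of a transcript start in RefSeq (GRCh38.p14), written 5′ to 3′ on the gene's strand. Windows of 6 of the 7 members were searched, 8 windows in all. Capitals mark TGANTCA, the core recognised by AP-1 factors, GTCT, the core recognised by SMAD factors, on either strand (AGAC is GTCT on the other strand), and in the first SERPINE2 window a stretch that recurs.
SERPINE2 window 1, chr2:224031479-224031728, minus strand: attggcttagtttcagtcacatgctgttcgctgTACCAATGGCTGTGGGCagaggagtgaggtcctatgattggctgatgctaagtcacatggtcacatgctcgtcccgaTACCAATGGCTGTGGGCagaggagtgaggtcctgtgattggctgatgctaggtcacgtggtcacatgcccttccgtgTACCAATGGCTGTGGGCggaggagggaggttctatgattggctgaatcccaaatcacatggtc
SERPINE2 window 2, chr2:224038641-224038890, minus strand: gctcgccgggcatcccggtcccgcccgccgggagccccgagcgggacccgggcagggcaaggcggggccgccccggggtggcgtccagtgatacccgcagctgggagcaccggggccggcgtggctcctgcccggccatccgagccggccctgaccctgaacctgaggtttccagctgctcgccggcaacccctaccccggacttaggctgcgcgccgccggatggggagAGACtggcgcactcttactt
PLAU window 2, chr10:73910882-73911131, plus strand: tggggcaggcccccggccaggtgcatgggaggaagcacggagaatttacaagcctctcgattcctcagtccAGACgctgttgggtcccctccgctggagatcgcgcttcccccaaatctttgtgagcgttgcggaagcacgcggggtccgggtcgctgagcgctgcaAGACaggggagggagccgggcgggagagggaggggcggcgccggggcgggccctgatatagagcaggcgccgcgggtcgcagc
PLAUR, chr19:43670170-43670419, minus strand: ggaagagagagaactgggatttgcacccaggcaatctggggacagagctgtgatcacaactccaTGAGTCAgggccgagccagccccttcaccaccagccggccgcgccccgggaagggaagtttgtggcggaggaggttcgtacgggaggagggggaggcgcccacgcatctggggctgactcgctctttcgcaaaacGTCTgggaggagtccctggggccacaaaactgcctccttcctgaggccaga
ANXA2, chr15:60397987-60398236, minus strand: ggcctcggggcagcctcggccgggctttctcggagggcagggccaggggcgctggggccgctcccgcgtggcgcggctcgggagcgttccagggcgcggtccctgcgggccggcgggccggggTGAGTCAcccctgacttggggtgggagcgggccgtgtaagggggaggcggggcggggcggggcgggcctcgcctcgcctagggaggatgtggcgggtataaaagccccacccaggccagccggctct

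The PLAUR and ANXA2 windows each held 1 match to TGANTCA, starting 186 and 127 bases before the start, whereas 6.57% of the 35116 RefSeq windows of this length hold this motif. GTCT, a short motif that 77.5% of windows hold, was matched in PLAUR, in the second windows of PLAU and SERPINE2 and in S100A10. The palindrome GTCTAGAC, present in 0.182% of windows, was in none of the 8. GGTGTG, searched because KLF factors bind such GT-rich sites, was matched only in the PLGRKT window, 63 bases before the start, and is held by 14.2% of windows. GGGCGG, the GC box that KLF and SP factors also bind, was matched 3 times in the second PLAU window, 1 and 2 times in the SERPINE2 windows, 3 times in ANXA2 and 1 time in S100A10, and is held by 42.6% of windows. The first SERPINE2 window carried a stretch of 17 bases, marked in capitals, that occurs 3 times, starting 217, 140 and 63 bases before the start. A stretch of at least 15 bases that occurs 3 or more times was found in 2.41% of windows. These matches are letters in a window and not evidence of binding, and the counts do not tell which start a gene used.

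**Figure D1:**
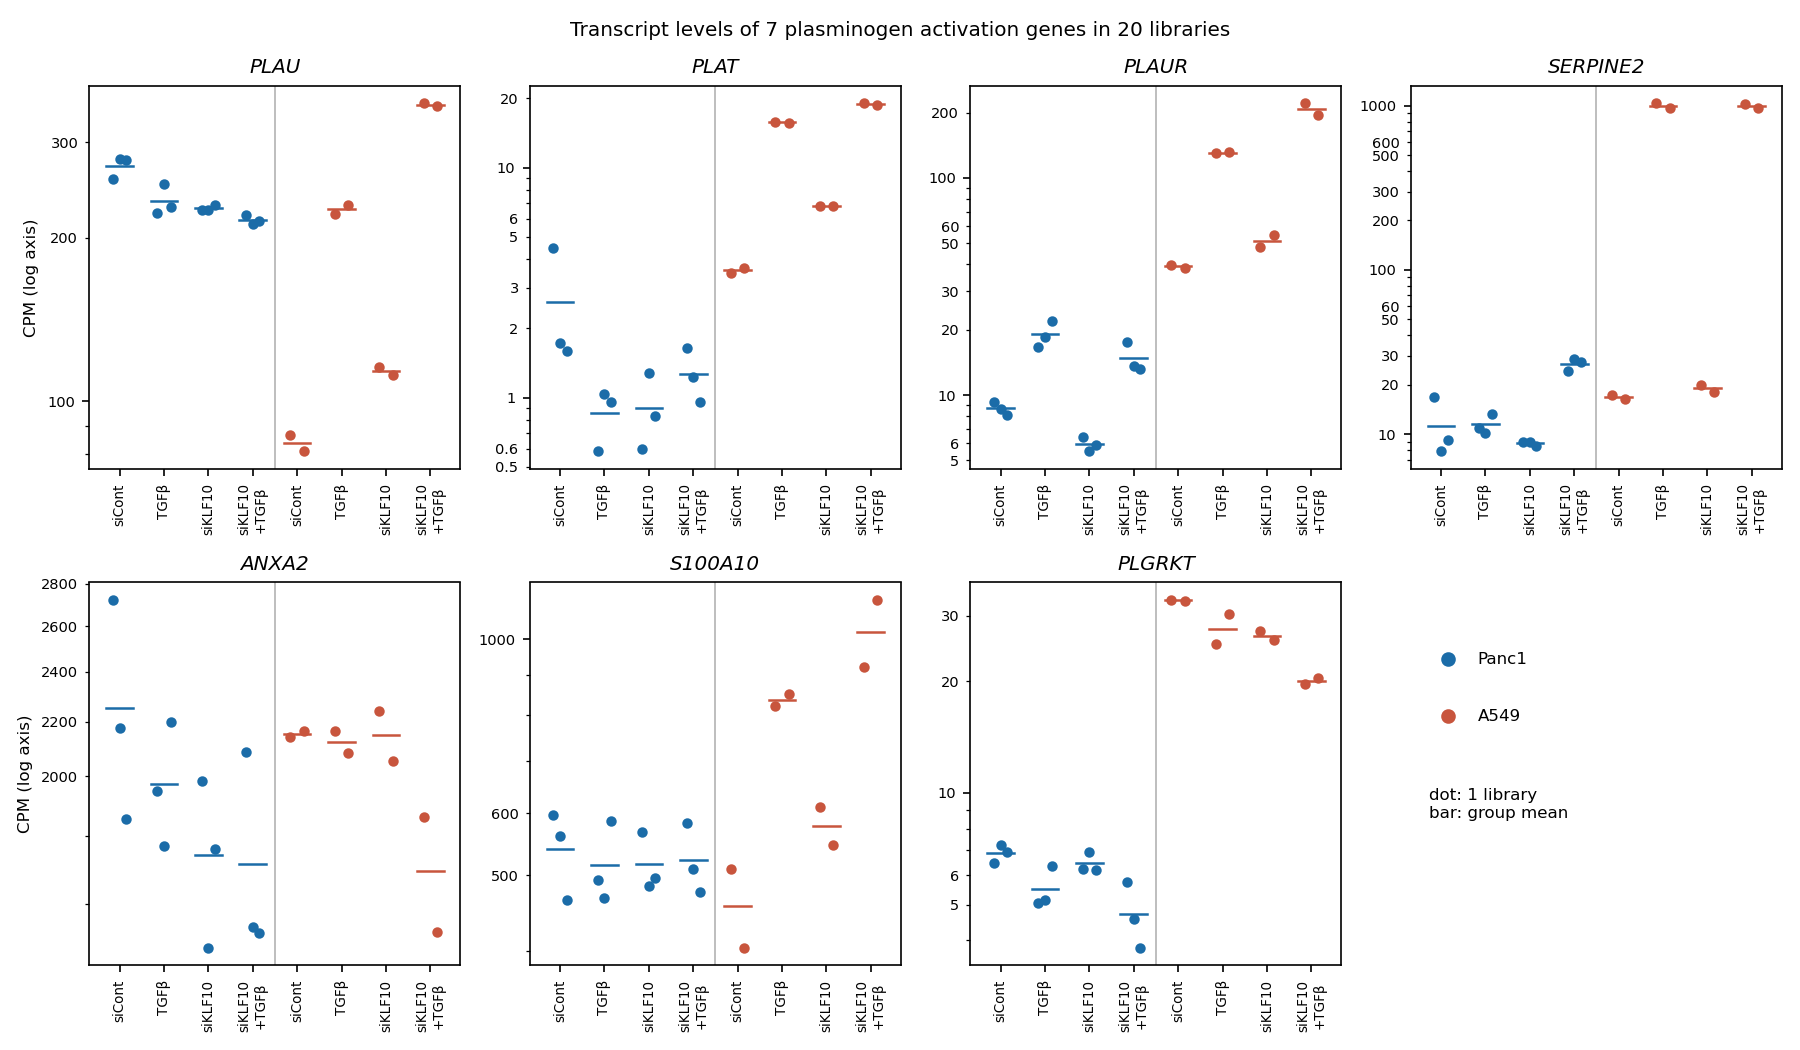
Level of each of the 7 genes in every library, in CPM on a log axis whose range differs between panels, with Panc1 groups in blue on the left and A549 groups in red on the right. Dots are libraries and bars are group means. SERPINE2 in A549 lies near 1000 CPM in both TGFβ groups and under 20 CPM in the other groups, while ANXA2 stays between 1481 and 2722 CPM throughout.

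The activators PLAU and PLAT rose with TGFβ in A549 and fell with it in Panc1. In A549, PLAU was at 86.4 and 80.7 CPM in siCont and at 221.2 and 230.3 CPM with TGFβ, 2.84-fold higher (log2 fold change 1.50 ± 0.08 SE, adjusted p = 4.92e-13, quasi-likelihood F test of edgeR, adjusted by Benjamini-Hochberg, as for every adjusted p here). The libraries labelled siKLF10 held 115.4 and 111.9 CPM, and those labelled siKLF10 with TGFβ held 353.9 and 349.4 CPM, the highest PLAU levels of the series. The 4 A549 groups did not overlap and ranked siCont, siKLF10, TGFβ, and siKLF10 with TGFβ. PLAU was thus higher in the libraries labelled siKLF10 than in siCont (log2 fold change 0.47 ± 0.08, adjusted p = 0.000227) and, between the TGFβ groups, higher in those labelled siKLF10 (0.61 ± 0.07, adjusted p = 2.76e-06). In Panc1, PLAU moved within a narrow band and the other way. It stood at 257, 280.0 and 278 CPM in siCont and at 222, 251 and 228 CPM with TGFβ, a fall of 1.17-fold (log2 fold change -0.23 ± 0.06, adjusted p = 0.00539). The siKLF10 libraries held 225, 225 and 230.0 CPM (log2 fold change against siCont -0.26 ± 0.06, adjusted p = 0.00168), and the libraries with siKLF10 and TGFβ held 220.1, 212 and 215 CPM. The siCont libraries lay above all other Panc1 libraries, and the remaining groups differed little: siKLF10 with TGFβ against TGFβ gave -0.11 ± 0.06 (adjusted p = 0.149) and against siKLF10 -0.08 ± 0.06 (adjusted p = 0.316). Without TGFβ library A the fall of PLAU with TGFβ in Panc1 was not called (log2 fold change -0.19, adjusted p = 0.0522).

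PLAT was scarce in Panc1, and the calls of its decrease there rested on 1 library. In A549 it was at 3.49 and 3.68 CPM in siCont and at 15.8 and 15.7 CPM with TGFβ, a 4.62-fold rise (log2 fold change 2.21 ± 0.17, adjusted p = 3.12e-10). The libraries labelled siKLF10 lay between them at 6.80 and 6.79 CPM, 1.93-fold above siCont (0.95 ± 0.19, adjusted p = 0.00134). With TGFβ the libraries labelled siKLF10 reached 19.0 and 18.7 CPM, a difference from TGFβ that was not called (0.23 ± 0.13, adjusted p = 0.197). In Panc1, PLAT was at 4.47, 1.73 and 1.60 CPM in siCont, from 61, 22 and 24 counts. TGFβ libraries held 0.584, 1.04 and 0.959 CPM, siKLF10 libraries 0.599, 1.28 and 0.829 CPM, and libraries with siKLF10 and TGFβ 1.64, 1.23 and 0.955 CPM, from 7 to 25 counts each. Library A of siCont was the highest of the 12, and the same library was highest in KRT5. The log2 fold change was -1.60 ± 0.40 with TGFβ (adjusted p = 0.0044) and -1.50 ± 0.40 with siKLF10 (adjusted p = 0.00641). Without siCont library A neither was called, at -0.96 (adjusted p = 0.0563) and -0.86 (adjusted p = 0.073), although siCont libraries B and C still lay above every TGFβ and siKLF10 library.

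PLAUR was the one member called higher with TGFβ in both lines, and its siKLF10 differences had opposite signs in the lines. In A549, where uPAR transcript was more abundant, it was at 39.9 and 38.3 CPM in siCont and at 129.7 and 131.7 CPM with TGFβ, 3.51-fold higher (log2 fold change 1.81 ± 0.10, adjusted p = 1.01e-12). The libraries labelled siKLF10 held 47.8 and 54.6 CPM (0.41 ± 0.10 against siCont, adjusted p = 0.00771), and those labelled siKLF10 with TGFβ held 220.3 and 193.9 CPM (0.63 ± 0.09 against TGFβ, adjusted p = 1.94e-05). As for PLAU, the 4 A549 groups did not overlap and held the same order. The difference without TGFβ was not called without siCont library B (adjusted p = 0.0794) or without siKLF10 library B (adjusted p = 0.106). In Panc1, PLAUR was at 9.32, 8.64 and 8.13 CPM in siCont and at 16.6, 18.5 and 21.9 CPM with TGFβ, 2.18-fold higher (1.12 ± 0.13, adjusted p = 3.84e-07). The siKLF10 libraries were the lowest of the series at 6.42, 5.50 and 5.88 CPM, 1.47-fold under siCont (-0.55 ± 0.15, adjusted p = 0.00738). The libraries with siKLF10 and TGFβ held 17.5, 13.7 and 13.1 CPM, 2.51-fold above siKLF10 alone (1.33 ± 0.14, adjusted p = 9.81e-08). Against TGFβ alone they were called lower (-0.35 ± 0.12, adjusted p = 0.0244), but these groups overlapped. That call was lost without TGFβ library C (-0.24, adjusted p = 0.163) and without siKLF10 with TGFβ library B (-0.30, adjusted p = 0.1) or library C (-0.28, adjusted p = 0.106).

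SERPINE2 had the largest change of the 7 genes, and in Panc1 its TGFβ response was larger after siKLF10. In A549 it was at 17.2 and 16.4 CPM in siCont and at 1032 and 967.1 CPM with TGFβ, which is 62.4-fold (log2 fold change 5.96 ± 0.10, adjusted p = 4.06e-21). The libraries labelled siKLF10 held 19.9 and 18.2 CPM without TGFβ and 1020 and 963.1 CPM with it, 52.6-fold (5.72 ± 0.10, adjusted p = 1.8e-20). The difference between the TGFβ groups was -0.04 ± 0.07 (adjusted p = 0.728). In Panc1 the siCont libraries were at 16.8, 7.86 and 9.19 CPM and the TGFβ libraries at 10.9, 10.2 and 13.3 CPM, with no call (0.02 ± 0.22, adjusted p = 0.955). Library A of siCont, again the library with the high KRT5, was the high one. Without it the siCont libraries lay below the TGFβ libraries and a small rise was called (0.42, adjusted p = 0.0306). The siKLF10 libraries held 8.98, 8.96 and 8.45 CPM (-0.36 ± 0.23 against siCont, adjusted p = 0.26), called lower without siCont library B (-0.55, adjusted p = 0.0385). The libraries with siKLF10 and TGFβ held 24.4, 28.9 and 27.4 CPM and lay above all other Panc1 libraries. They were 3.05-fold above siKLF10 (1.61 ± 0.21, adjusted p = 4e-05) and 2.34-fold above TGFβ (1.23 ± 0.20, adjusted p = 0.000349). The interaction, that is the TGFβ response after siKLF10 minus the TGFβ response in its absence, was 1.59 ± 0.31 on the log2 scale (adjusted p = 0.0113). It was called in each of the 12 fits that left out 1 library, at 1.19 to 1.78.

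**Figure D2:**
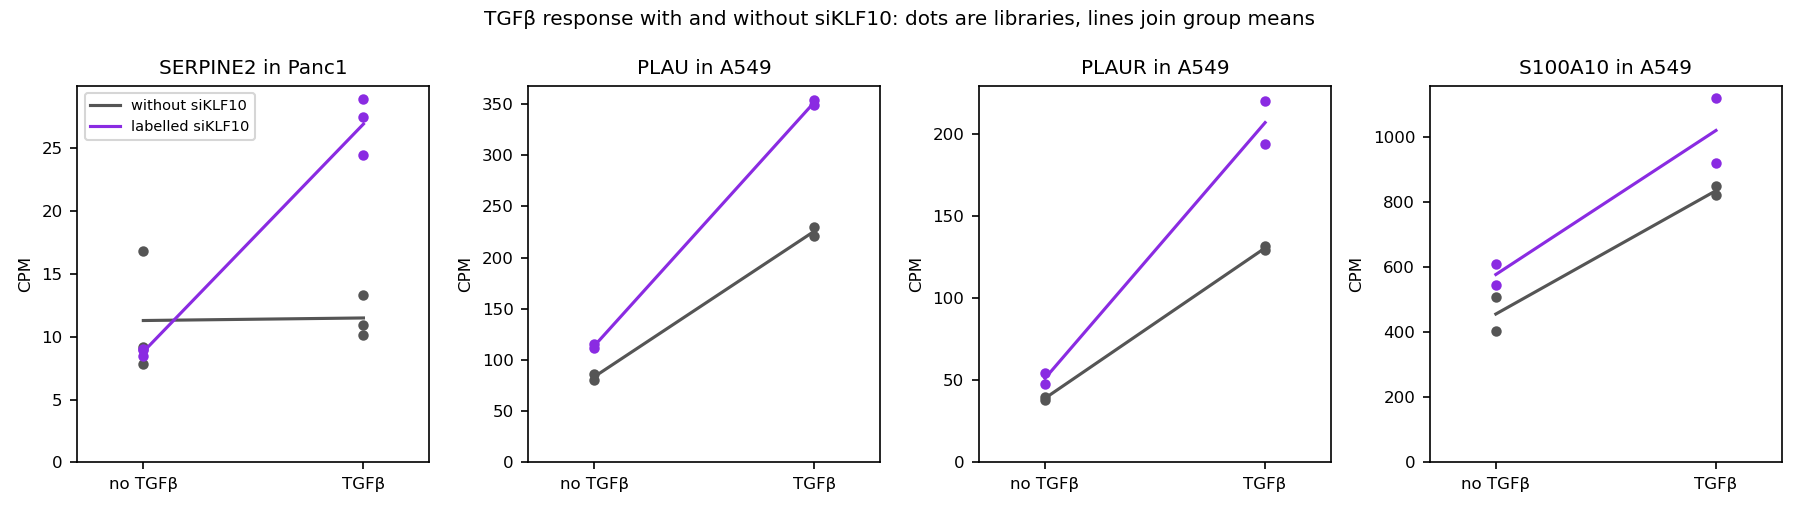
Level in CPM (linear axis from 0) without and with TGFβ, in libraries without siKLF10 (grey) and labelled siKLF10 (purple), for SERPINE2 in Panc1 and for PLAU, PLAUR and S100A10 in A549. Dots are libraries and lines join group means. In Panc1 the SERPINE2 lines part, from 8.80 to 26.9 CPM after siKLF10 against 11.3 to 11.5 CPM without it, whereas in A549 the purple means lie above the grey ones at both ends.

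Of the plasminogen receptors, ANXA2 changed little in either line. ANXA2, an annexin that presents S100A10 at the membrane, was at 2722, 2177 and 1855 CPM in Panc1 siCont, at 1949, 1770 and 2197 CPM with TGFβ, at 1984, 1481 and 1760 CPM with siKLF10, and at 2088, 1535 and 1520 CPM with both. All 4 groups overlapped, and no comparison in Panc1 was called (log2 fold changes -0.37 to -0.02, adjusted p from 0.156). In A549 its level was 2143 and 2163 CPM in siCont, then 2163 and 2081 CPM with TGFβ, 2243 and 2052 CPM in the libraries labelled siKLF10, and 1863 and 1524 CPM in those labelled siKLF10 with TGFβ. The last group was the low one, under TGFβ (-0.35 ± 0.09, adjusted p = 0.0057) and under the libraries labelled siKLF10 (-0.32 ± 0.09, adjusted p = 0.00454). Neither call withstood the loss of every library: the first was lost without TGFβ library A (adjusted p = 0.0731), the second without siKLF10 library A (adjusted p = 0.0759) or siKLF10 with TGFβ library B (-0.16, adjusted p = 0.0602). ANXA2 has 3 near-identical processed copies in the annotation, ANXA2P1, ANXA2P2 and ANXA2P3, which took 39.3 to 52.7% of the counts of the 4 rows together in Panc1 and 44.5 to 48.8% in A549. How reads were split between the copies is uncertain, and so is the ANXA2 level. ANXA2P2 was called lower in Panc1 with siKLF10 (-0.22, adjusted p = 0.00763) and between the TGFβ groups (-0.20, adjusted p = 0.0107). In A549 it was lower with siKLF10 and TGFβ than with TGFβ (-0.38, adjusted p = 0.00521) or siKLF10 (-0.33, adjusted p = 0.00668). ANXA2P1 and ANXA2P3 were not called in any comparison within a line. With the 4 rows summed, an alternative added after the data were seen, siKLF10 against siCont in Panc1 was called lower (-0.27, adjusted p = 0.016).

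S100A10, the plasminogen-binding partner of ANXA2, rose with TGFβ in A549, with no call in Panc1. In A549 it was at 509.2 and 403.8 CPM in siCont and at 821.5 and 850.5 CPM with TGFβ (0.94 ± 0.11, adjusted p = 2.5e-06). The libraries labelled siKLF10 held 610.1 and 546.1 CPM and those labelled siKLF10 with TGFβ 920.3 and 1122 CPM. Both lay above their counterparts, by 0.37 ± 0.11 (adjusted p = 0.0237) without TGFβ, which was called, and by 0.26 ± 0.10 (adjusted p = 0.0799) with it, which was not. The first call was lost without siCont library B (0.21, adjusted p = 0.284) or siKLF10 library A (adjusted p = 0.214), and the second difference was called without siKLF10 with TGFβ library A (adjusted p = 0.0027) and without a filter on low counts (adjusted p = 0.00504). In Panc1 all libraries lay between 464.3 and 596.3 CPM. The group means ± SD there were 540.3 ± 68.2 in siCont, 515.7 ± 62.9 with TGFβ, 516.3 ± 45.3 with siKLF10 and 522.7 ± 55.1 with both (n = 3 each), so that every difference was smaller than the spread within a group.

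PLGRKT, a transmembrane plasminogen receptor, had a lower mean in every other group than in siCont of the same line, and each of its calls within a line was a fall. In A549 it went from 33.1 and 33.0 CPM in siCont to 25.1 and 30.4 CPM with TGFβ, 27.3 and 25.8 CPM in the libraries labelled siKLF10, and 19.7 and 20.4 CPM in those labelled siKLF10 with TGFβ. The first of these differences were not called (-0.19 ± 0.12 with TGFβ, adjusted p = 0.177, and -0.29 ± 0.11 for siKLF10, adjusted p = 0.0838, called at 0.0224 with only the compared groups in the fit). The group labelled siKLF10 with TGFβ was called lower than TGFβ (-0.48 ± 0.12, adjusted p = 0.00441) and than siKLF10 (-0.39 ± 0.12, adjusted p = 0.00878), calls lost without TGFβ library B (adjusted p = 0.102) and without siKLF10 library A (adjusted p = 0.0914). In Panc1 the siCont libraries held 6.46, 7.23 and 6.93 CPM, those with TGFβ 5.03, 5.13 and 6.37 CPM, those with siKLF10 6.24, 6.93 and 6.18 CPM, and those with both 5.76, 4.58 and 3.82 CPM. The last group was called below siKLF10 (-0.43 ± 0.16, adjusted p = 0.033). The call was lost with DESeq2 (adjusted p = 0.0645), with only the compared groups in the fit (adjusted p = 0.0543), and without siKLF10 library B (adjusted p = 0.0981) or siKLF10 with TGFβ library B (adjusted p = 0.0895) or C (adjusted p = 0.153).

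**Figure D3:**
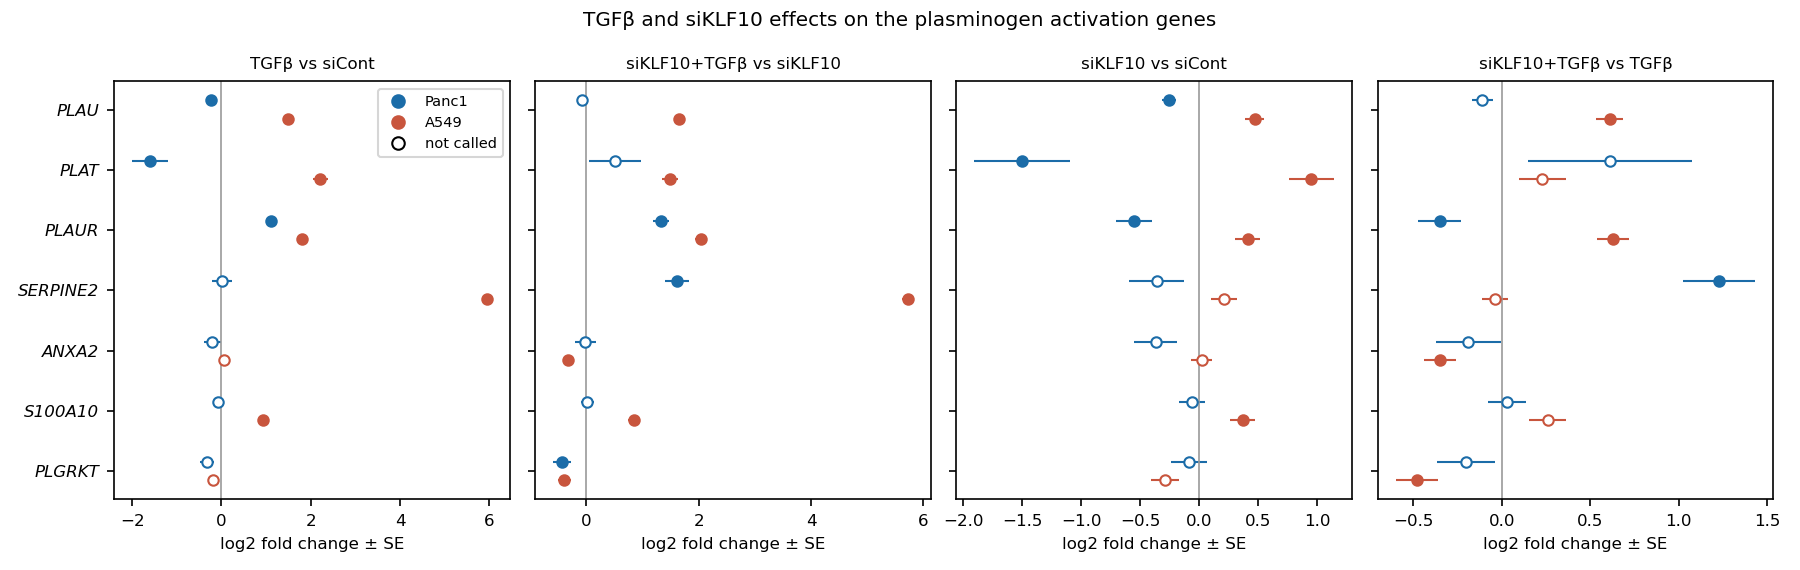
Log2 fold change ± SE of each gene in 4 comparisons, with Panc1 in blue and A549 in red, filled where the adjusted p was under 0.05 and open where it was not. The x axes differ in range. The SERPINE2 points of A549 lie at 5.96 and 5.72 in the TGFβ comparisons, and the PLAU, PLAT and PLAUR points of the lines lie on opposite sides of 0 for siKLF10 against siCont.

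The counts of members called are to be read against the share of all tested genes called in the same direction. With TGFβ in A549, 5 of 7 members were called higher and none lower, where 24.2% of all genes were called higher and 23.5% lower. With TGFβ after siKLF10 in A549, 5 were higher and 2 lower, where 26.5% and 26.8% of all genes were. For the libraries labelled siKLF10 against siCont, 4 were higher (9.57% of all genes) and 0 lower (9.96%), and between the TGFβ groups 2 were higher (14.4%) and 2 lower (13.9%). The median log2 fold change of the 7 was 1.50 with TGFβ, 1.49 with TGFβ after siKLF10, 0.37 for siKLF10 and 0.23 for siKLF10 under TGFβ, where the medians over all genes lay between -0.01 and 0.01. In Panc1, TGFβ gave 1 member higher (14% of all genes) and 2 lower (15.1%), and siKLF10 gave 0 higher (17.3%) and 3 lower (18.3%). Between the Panc1 TGFβ groups 1 was higher (21.1%) and 1 lower (20.6%), and with TGFβ after siKLF10 2 were higher (22.6%) and 1 lower (22.3%). The Panc1 medians were -0.20, -0.36, -0.11 and 0.02, beside medians of -0.01 to 0.00 over all genes. These comparisons within a line share groups, so their counts are not independent of each other.

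The interaction of siKLF10 and TGFβ was called for SERPINE2 alone among the Panc1 members (1 higher and 0 lower, where 2.56% of all genes were called higher and 1.86% lower). PLAT came next (2.11 ± 0.62, adjusted p = 0.0568) and was called with DESeq2 (adjusted p = 0.0303), without a filter on low counts (adjusted p = 0.0113), and without siCont library B (adjusted p = 0.0401) or C (adjusted p = 0.0237) or siKLF10 library B (adjusted p = 0.0375), but was smaller without siCont library A (1.47, adjusted p = 0.13). In A549 no member was called by edgeR or by DESeq2 (0 of 7 by each, where edgeR called 3.26% of all genes higher and 3.23% lower), and 2 had an unadjusted p under 0.05 in edgeR: PLAT (-0.72 ± 0.23, adjusted p = 0.0745) and ANXA2 (-0.38 ± 0.13, adjusted p = 0.0895). Both were called without siKLF10 with TGFβ library A (-0.74, adjusted p = 0.0311, and -0.55, adjusted p = 4e-06). The SERPINE2 interaction in A549 was -0.25 ± 0.13 (adjusted p = 0.312).

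The lines differed in the size and in part the sign of the responses, tested as the Panc1 log2 fold change minus the A549 one in 1 model over the 20 libraries. For TGFβ against siCont the difference was -5.86 ± 0.29 for SERPINE2 (adjusted p = 1.82e-10), -3.73 ± 0.43 for PLAT (adjusted p = 5.28e-08), -1.65 ± 0.10 for PLAU (adjusted p = 4.27e-15), -0.94 ± 0.19 for S100A10 (adjusted p = 0.000947) and -0.61 ± 0.16 for PLAUR (adjusted p = 0.00411). These 5 were all lower in Panc1 and none was higher, where 13.8% of all genes were called lower and 17.1% higher. The differences of ANXA2 (-0.17 ± 0.25, adjusted p = 0.675) and PLGRKT (-0.05 ± 0.19, adjusted p = 0.907) were not called. For siKLF10 against siCont, 3 members were lower in Panc1 and 0 higher (8.65% and 8.59% of all genes): PLAU (-0.70 ± 0.10, adjusted p = 6.1e-06), PLAT (-2.43 ± 0.46, adjusted p = 0.000374) and PLAUR (-0.94 ± 0.18, adjusted p = 0.000466). For siKLF10 with TGFβ against TGFβ, SERPINE2 was higher in Panc1 (1.23 ± 0.24, adjusted p = 0.00214) and PLAU (-0.76 ± 0.10, adjusted p = 6.63e-07) and PLAUR (-1.02 ± 0.15, adjusted p = 5.74e-06) were lower (1 and 2 members, where 7.52% of all genes were higher and 12.3% lower). The siKLF10 differences compare a line whose KLF10 level fell with a line whose KLF10 level did not without TGFβ.

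The control levels also differed between the lines. In siCont, PLAU was 3.25-fold lower in A549 than in Panc1 (log2 difference -1.70 ± 0.07, adjusted p = 2.17e-20), whereas its receptor PLAUR was 4.51-fold higher (2.17 ± 0.12, adjusted p = 1.45e-17) and PLGRKT 4.82-fold higher (2.27 ± 0.12, adjusted p = 1.16e-17). SERPINE2 was called higher in A549 (0.58 ± 0.22, adjusted p = 0.0228), but the groups overlapped and the call was lost without Panc1 siCont library B (adjusted p = 0.0539) or C (adjusted p = 0.0832) or A549 siCont library A (adjusted p = 0.109) or B (adjusted p = 0.0595). PLAT was not called (0.47 ± 0.30, adjusted p = 0.145) until Panc1 siCont library A was left out (1.11, adjusted p = 0.000343). ANXA2 (-0.06 ± 0.18) and S100A10 (-0.24 ± 0.13) were not called, though S100A10 was called lower in A549 without a filter on low counts (-0.31) and without Panc1 siCont library C (-0.34) or A549 siCont library A (-0.42). In all, 3 members were higher and 1 lower in A549, where 42.9% of all genes were called higher and 39% lower, so most tested genes were called between the lines. With TGFβ the mean PLAU level was 225.7 ± 6.40 CPM (SD, n = 2) in A549 and 233.7 ± 15.4 CPM (n = 3) in Panc1, against 83.6 ± 4.02 and 271.5 ± 12.9 CPM in siCont.

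**Figure D4:**
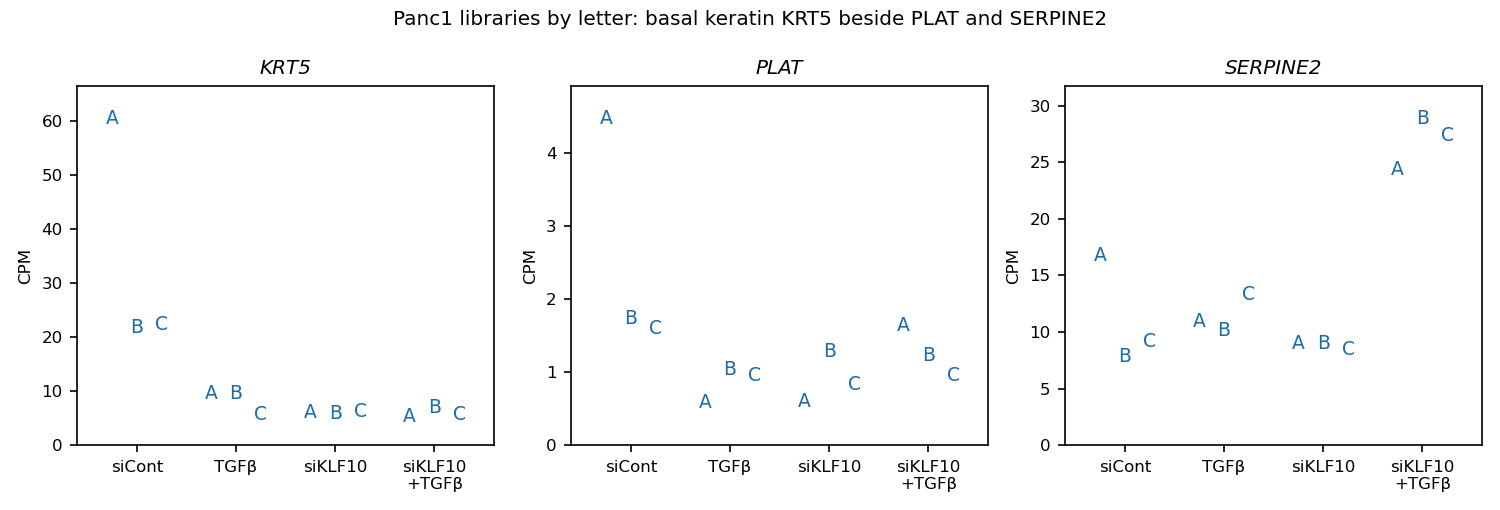
Levels in CPM (linear axes from 0) of KRT5, PLAT and SERPINE2 in the 12 Panc1 libraries, each drawn as its letter. In siCont, library A holds 60.5, 4.47 and 16.8 CPM and lies above libraries B and C in all 3 genes.

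Another 37 genes of the plasminogen pathway put the members in context: other activators, inhibitors, plasminogen-binding proteins, and the clearance and co-receptors of uPAR. PLG, the zymogen itself, named here after its values were seen, had 0 counts in all 8 A549 libraries and at most 1 count in the 12 Panc1 libraries, under the floor of 3 counts. In A549, 28 of the 37 were tested with TGFβ and 15 rose and 9 fell (median log2 fold change 0.26), where 24.2% of all genes rose and 23.5% fell. Of the 10 clearance and co-receptors tested, 8 rose. ITGA5, an integrin subunit that pairs with ITGB1 as a fibronectin receptor, went from 78.3 ± 2.30 to 473.4 ± 17.2 CPM (2.67 ± 0.08, n = 2). LRP1, the receptor that clears activator and inhibitor complexes, was another that rose, and VTN, the matrix protein vitronectin that binds uPAR, fell from 24.6 ± 1.11 to 1.21 ± 0.32 CPM (-4.32 ± 0.24). Of the 10 inhibitors tested 5 rose and 4 fell, among them SERPINI1, neuroserpin, an inhibitor of tPA (-2.18 ± 0.13). With TGFβ after siKLF10, 13 of 28 rose and 9 fell (26.5% and 26.8% of all genes), led by VTN (-4.37 ± 0.28), SERPINI1 (-2.56 ± 0.13) and THBD, thrombomodulin (2.36 ± 0.15). For the libraries labelled siKLF10, 6 were higher and 6 lower (9.57% and 9.96% of all genes), led by VTN (-1.14 ± 0.15), SERPINB8 (0.56 ± 0.15) and TFPI2 (-0.52 ± 0.09). Between the A549 TGFβ groups 8 were higher and 4 lower (14.4% and 13.9% of all genes, so the lower count is near the background), the largest being LRP1 (0.74 ± 0.07), MRC2, a collagen receptor that associates with uPAR (0.63 ± 0.07), and VLDLR (0.48 ± 0.09). The A549 interaction was called higher for 4 and lower for 3 of the 28 (3.26% and 3.23% of all genes), led by VLDLR (0.61 ± 0.14), ITGA5 (-0.47 ± 0.11) and LRP1 (0.46 ± 0.10).

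In Panc1, 24 of the 37 pathway genes were tested, and with TGFβ 6 rose and 9 fell (median -0.09), where 14% of all genes rose and 15.1% fell. Here too the genes that rose were mostly clearance and co-receptors, 5 of the 9 tested. ITGAV, an integrin subunit of vitronectin receptors, went from 271.0 ± 19.9 to 686.0 ± 32.1 CPM (1.33 ± 0.09, n = 3), and ITGA5 rose by 0.91 ± 0.06. Of the 8 inhibitors tested none rose and 5 fell, among them SERPINI1 (-0.94 ± 0.15). With siKLF10, 2 rose and 8 fell (17.3% and 18.3% of all genes), led by SERPINI1 (1.04 ± 0.12), CTSB, cathepsin B, which can activate pro-urokinase (-0.47 ± 0.06), and ENO1, a glycolytic enzyme that also binds plasminogen (-0.46 ± 0.07). Between the Panc1 TGFβ groups 3 were higher and 8 lower (21.1% and 20.6% of all genes), led by SERPINI1 (1.43 ± 0.15), KRT8 (0.96 ± 0.08) and SPINT2, an inhibitor of pro-urokinase activators (-0.79 ± 0.09). With TGFβ after siKLF10, 6 rose and 8 fell (22.6% and 22.3% of all genes, so the count that rose is near the background), led by ITGAV (1.67 ± 0.09), ITGA5 (1.01 ± 0.06) and SPINT2 (-0.89 ± 0.09). The interaction was called in 2 of the 24 (2.56% of all genes higher and 1.86% lower). It was higher for KRT8 (0.87 ± 0.12), which TGFβ lowered from 465.0 ± 46.1 to 254.5 ± 7.64 CPM without siKLF10 and which stood at 495.8 ± 30.7 and 493.4 ± 62.4 CPM without and with TGFβ after siKLF10. It was called lower for SPINT2 (-0.59 ± 0.12). Between the lines, 29 pathway genes were tested and the TGFβ response was called lower in Panc1 for 9 and higher for 4 (13.8% and 17.1% of all genes), the siKLF10 response lower for 7 and higher for 2 (8.65% and 8.59%), and the siKLF10 response under TGFβ lower for 8 and higher for 2 (12.3% and 7.52%).

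**Figure D5:**
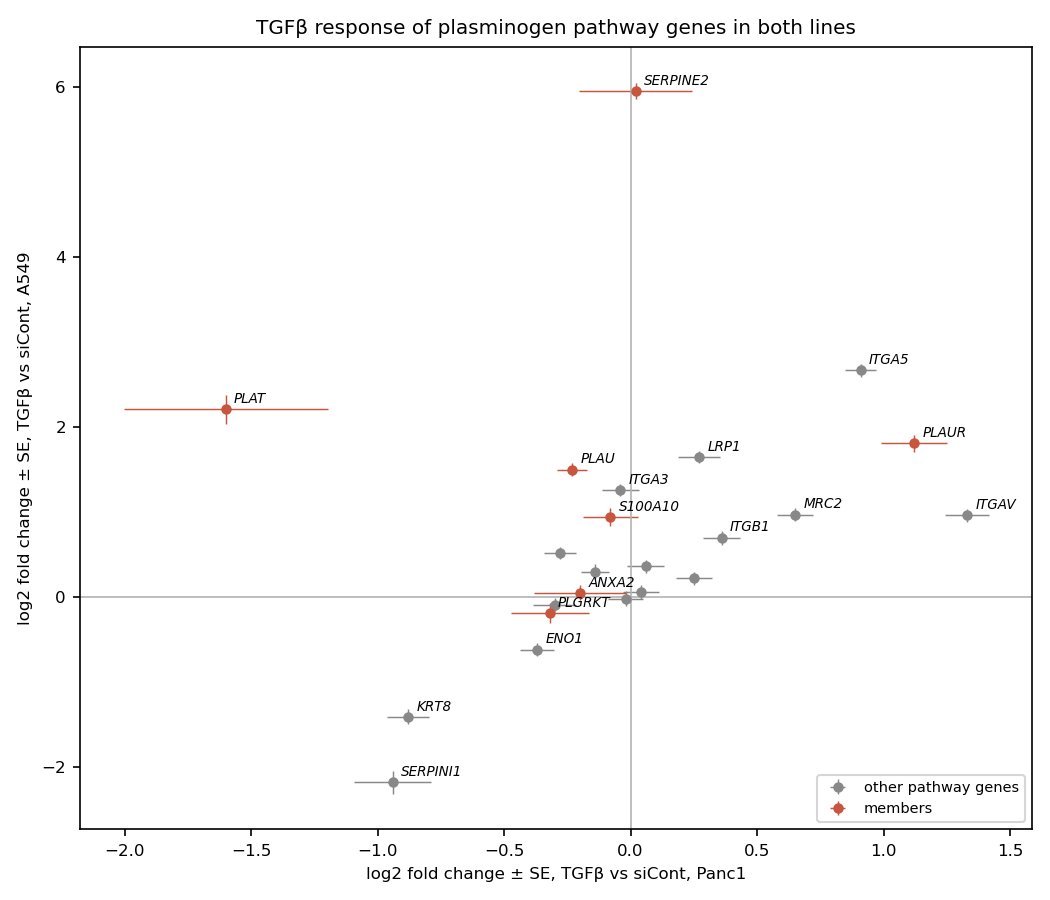
TGFβ against siCont as log2 fold change ± SE in Panc1 (x axis) and A549 (y axis), for the 7 members (red) and the 16 other pathway genes with a mean of at least 5 CPM in both lines (grey). The axes differ in range. SERPINE2 lies at 0.02 in Panc1 and 5.96 in A549, PLAT and PLAU lie left of 0 in Panc1 and above 0 in A549, and PLAUR lies with ITGA5 and ITGAV among the genes higher in both.

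ANXA2 and S100A10 belong to the annexin and S100 families. Of 22 other annexin and S100 genes, 19 were tested in A549 and 6 rose and 10 fell with TGFβ (median -0.23), where 24.2% of all genes rose and 23.5% fell. S100P, an epithelial S100 protein, fell from 75.2 ± 0.80 to 8.06 ± 0.81 CPM (-3.17 ± 0.14, n = 2), ANXA13 fell (-4.13 ± 0.23) and S100A2 rose (1.94 ± 0.22). In the libraries labelled siKLF10, 1 was higher, S100A6 (0.70 ± 0.15), and 4 were lower, led by ANXA13 (-1.50 ± 0.16) and S100A3 (-0.72 ± 0.18), beside 9.57% and 9.96% of all genes. Between the TGFβ groups 2 were higher and 5 lower (14.4% and 13.9% of all genes), led by S100P (-1.24 ± 0.20) and ANXA3 (-0.68 ± 0.09). In Panc1, 15 were tested, and 2 were higher and 6 lower with TGFβ (median -0.43, beside 14% and 15.1% of all genes), led by ANXA3 (-1.53 ± 0.17), ANXA1 (-0.82 ± 0.07) and S100A4 (-0.59 ± 0.17). With siKLF10 in Panc1 none was higher and 8 were lower (17.3% and 18.3% of all genes), led by S100A2 (-1.80 ± 0.34) and ANXA6 (-0.63 ± 0.09). The Panc1 interaction was called for ANXA5 (0.44 ± 0.08), 1 of the 15, beside 2.56% of all genes higher and 1.86% lower. The A549 interaction was called higher for 1 of the 19, also ANXA5 (0.41 ± 0.11). It was called lower for 3, led by S100P (-0.97 ± 0.22) and ANXA3 (-0.80 ± 0.13), beside 3.26% of all genes higher and 3.23% lower.

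Among the members themselves, log2 levels after subtraction of each line's mean ran together for PLAU and S100A10 (r = 0.90), PLAU and SERPINE2 (r = 0.86), SERPINE2 and S100A10 (r = 0.84), PLAU and PLAT (r = 0.82) and PLAUR and SERPINE2 (r = 0.81), while PLGRKT ran against PLAUR (r = -0.65). Panc1 taken alone looked different. With TGFβ the log2 fold changes there were -0.23 for PLAU, -0.08 for S100A10 and 0.02 for SERPINE2. In Panc1 the group with siKLF10 and TGFβ had the lowest PLAU mean (215.5 CPM) and the highest SERPINE2 mean (26.9 CPM). Correlations of member pairs within a line were not computed. The r values are Pearson correlations over the 20 libraries of both lines, which share the TGFβ groups and are given as a description. By the same measure the genes most like PLAUR were ELK3 (r = 0.983), ZYX (0.981) and CHST11 (0.975), and within Panc1 alone these were 0.969, 0.984 and 0.974. The genes most like PLAU were EGFR (0.978), PITPNM2 (0.976) and STK10 (0.975), at 0.652, 0.516 and 0.848 within Panc1. Those most like SERPINE2 were RASGRP3 (0.984), GRB10 (0.983) and NPTX1 (0.983), at 0.765, 0.788 and 0.817 within Panc1. For S100A10 they were PVRL4 (0.934), RHOD (0.927) and LOC100129046 (0.927), and the last was at -0.163 within Panc1. PLAT had STC1 (0.883), SH3GL3 (0.880) and TINAGL1 (0.875), ANXA2 had PHB2 (0.891) and PSMD8 (0.873), and PLGRKT had ETFB (0.911), NT5C (0.909) and ISG20 (0.902).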

How the data were processed

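For each of the 20 libraries the authors deposited a file of raw counts per gene. Per the submitters' processing notes, TopHat, Bowtie2, HTSeq 0.6.0 and DESeq2 were used with build hg19, and the notes give neither role nor order. Per the labels' protocols, poly(A) RNA went through a directional kit. Whether counting used strand is not given in the sources, so overlapping and antisense genes are uncertain. The 5 summary lines of each table entered neither library sizes nor tests. The authors' tables of their own comparisons were not used here.

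Tests used edgeR 4.0.16 (R 4.3.3). Counts were filtered by filterByExpr (minimum count 10, minimum total 15), scaled by TMM and fitted with robust quasi-likelihood as group means, per line (13218 genes and 8 residual degrees of freedom in Panc1, 14124 genes and 4 in A549) or over both lines (15058 genes and 12). Genes with an adjusted p under 0.05 over all genes tested were called. Alternatives were DESeq2 1.42.0, its size factors in edgeR, no filter, only the compared groups, the replicate letter as a block, and each library left out. Replicate pairs differed beyond counting noise (chi-square per degree of freedom 2.06 to 12.5), so none was merged. Scripts were tested on simulated counts.

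The members and gene lists were chosen with earlier results of these data known. Named were all members and, from each list, up to 3 called genes per comparison with the largest change at a mean of at least 5 CPM in the line, and per member the 3 genes with the highest correlation of log2(CPM + 0.5), of which 1 gene is not reported here. Lengths were not used, so levels are not compared between genes. Promoters came from RefSeq and the counts from hg19, and no coordinates were converted. PLAT's promoter is not reported here.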

Additional observations from a re-analysis of the deposited data

Results flagged for a closer look

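A test of the difference itself was passed in 12 cases. Of the 7 members, 1 was called for the Panc1 interaction, where 2.56% of all genes were called higher and 1.86% lower. For the A549 interaction 0 were called (3.26% and 3.23%). For the line differences 5 were called for TGFβ (17.1% and 13.8%), 3 for siKLF10 (8.59% and 8.65%) and 3 for siKLF10 under TGFβ (7.52% and 12.3%). The comparisons share groups, so these cases are not independent of each other. The TGFβ response of SERPINE2 in Panc1 was larger after siKLF10 than without it by 1.59 ± 0.31 on the log2 scale (adjusted p = 0.0113). The TGFβ response in Panc1 minus that in A549 was -1.65 for PLAU, -3.73 for PLAT, -0.61 for PLAUR, -5.86 for SERPINE2 and -0.94 for S100A10. The response to siKLF10 differed between the lines by -0.70 for PLAU, -2.43 for PLAT and -0.94 for PLAUR. Under TGFβ it differed by -0.76 for PLAU, -1.02 for PLAUR and 1.23 for SERPINE2. The PLAT differences rest on 7 to 61 counts per library in Panc1, and without Panc1 siCont library A they were -3.09 (adjusted p = 7.9e-08) for TGFβ and -1.79 (adjusted p = 0.00145) for siKLF10.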

How the results depend on the processing

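No member's log2 fold change reversed a call under any alternative run. Leaving out 1 library at a time kept the side of the threshold in 632 of the member fold changes, took 22 below it and brought 11 above it, and the other alternatives gave 442, 2 and 11. With DESeq2's size factors in edgeR no member moved by more than 0.05 on the log2 scale. DESeq2 called 1725 genes for A549 siKLF10 against siCont (2759 with edgeR), 559 for the A549 interaction (916 with edgeR) and 2 members for the Panc1 interaction (1 with edgeR). Without a filter on low counts, 2 members were called for the Panc1 interaction, 1 for the A549 interaction (ANXA2, -0.35, adjusted p = 0.0347) and 6 for the line difference of siKLF10 against siCont (3 with the filter). The shares of all genes called without the filter are not given here, so these member counts have no background beside them. With 1 library left out, the Panc1 interaction ranged from 349 (without siKLF10 with TGFβ library B) to 1035 genes (without library A of that group; 584 with all libraries) and 1 to 2 members, and Panc1 siKLF10 with TGFβ against TGFβ from 1 to 2 members. A549 siKLF10 against siCont ranged from 1326 to 1638 genes and 2 to 4 members, the A549 interaction from 379 (without siCont library B) to 2684 genes (without siKLF10 with TGFβ library A) and 0 to 2 members, and A549 siKLF10 with TGFβ against TGFβ from 2237 (without TGFβ library A) to 5409 genes (3996 with all). The line differences of siKLF10 against siCont and of siKLF10 with TGFβ against TGFβ ranged from 1570 (without A549 siKLF10 library A) to 2512 (2597 with all) and from 1895 (without A549 TGFβ library A) to 3321 genes (2979 with all). An A549 group left with 1 library is assumed to vary like the others. The replicate letter used as a block called ANXA2 lower with siKLF10 in Panc1 (-0.37, adjusted p = 0.0256), changed no other member's call, and moved counts of genes called by 0.967 to 1.12 times. In Panc1, same-letter libraries deviated together (r over 0.1) in 2 of 18 pairs, beside 8 of 36 different-letter pairs. Those 2 joined siKLF10 to siKLF10 with TGFβ (library A 0.391, library B 0.166), where library C gave -0.013. In A549 pairing cannot be judged this way. With 2 libraries per group the deviations mirror each other, so same-letter and different-letter values differ only in sign. The labels state no pairing, and the letters were not taken to pair libraries. Depth limits PLAT in Panc1 most, where 7 to 61 counts were read per library.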
